A study of Homo sapiens with 18 samples.

Results

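The genes described here are 10 non-coding host genes of small nucleolar RNAs (snoRNAs), chosen by name as spliced long non-coding RNA genes that host snoRNAs and whose transcripts are known for a terminal oligopyrimidine (TOP) start and for nonsense-mediated decay: GAS5, ZFAS1, SNHG1, SNHG5, SNHG6, SNHG7, SNHG8, SNHG12, SNHG15 and SNHG16. Earlier results of these data were known when they were chosen. All 10 were found among the 57500 genes of the count tables, and all 10 had enough reads to be tested in every comparison. The study asked what happens to the transcriptome when DNAJC17, a J-domain co-chaperone linked to the spliceosome, is repressed in sarcoma cells by CRISPR interference (CRISPRi, a dead Cas9 fused to a KRAB repressor). RNA was sequenced from ES8, a Ewing sarcoma cell line, and Rh30, a rhabdomyosarcoma cell line, with 3 libraries (A, B and C) in each of 6 groups. In each line the control group was parental cells given a non-targeting guide (sgCTL), the knockdown group was parental cells given a guide against DNAJC17 (sgDNAJC17), and the ΔRRM group was cells stably expressing FLAG-tagged DNAJC17 without its RNA recognition motif, from an EF1 promoter, and given the same sgDNAJC17 guide. All groups were transduced with lentivirus and selected with puromycin for 72 hours. The ΔRRM cells are a separate stock from the parental cells, and the study's methods give a further lentiviral construct with hygromycin selection for such alleles. ΔRRM cells with sgCTL were not analysed here. In comparisons of ΔRRM with either other group the transgene, its selection and the cell stock therefore cannot be told apart. The study's methods give cells plated in triplicate, and nothing in the sources used here says that libraries of a group came from separate transductions. The p-values therefore measure only the spread between these libraries, moderated by edgeR over the genes tested.

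SnoRNAs guide the chemical modification of ribosomal and spliceosomal RNA, the box C/D class (SNORD genes) directing ribose methylation and the H/ACA class (SNORA genes) directing pseudouridylation. Most are cut out of introns after splicing, so a host transcript must be spliced to release its snoRNAs. In these hosts the introns are the conserved product, while the joined exons carry only short or no open reading frames, are exported, and are known to be engaged by ribosomes and degraded by nonsense-mediated decay. Many snoRNA hosts begin with a C and a run of pyrimidines, the TOP start that they share with ribosomal protein and translation factor genes, and their level in growing cells therefore reflects transcription, splicing and decay together. In bulk libraries fewer cells that express a gene and less of its RNA per cell cannot be told apart.

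By the RefSeq annotation (GRCh38) the 10 genes hold 37 snoRNAs. GAS5 holds 11, the box C/D SNORD44, SNORD47 and SNORD74 to SNORD81 and the H/ACA SNORA103. SNHG1 holds 9, including SNORD22 and SNORD25 to SNORD31. The other box C/D hosts are ZFAS1 (SNORD12, SNORD12B, SNORD12C), SNHG5 (SNORD50A, SNORD50B), SNHG6 (SNORD87) and SNHG16 (SNORD1A, SNORD1B, SNORD1C). SNHG7 (SNORA17A, SNORA17B), SNHG8 (SNORA24) and SNHG15 (SNORA9) host H/ACA snoRNAs. SNHG12, like GAS5, hosts both classes (SNORA16A, SNORA44, SNORA61, SNORD99). The sequences about the transcript starts are shown because the TOP start was part of how these genes were chosen, and they let a reader see what the annotated starts hold. For 8 of the 10 genes the RefSeq promoter table (GRCh38.p14) gave the 30 bases from 10 before the start to 20 from it, printed 5′ to 3′ on the transcribed strand with the longest run of a C followed by at least 4 pyrimidines in capitals. Such a run, searched on the transcribed strand only, stood in the window of 6 of these 8 genes (75%) and of 38.4% of 35116 RefSeq starts. Since the choice of genes drew on the TOP start, these shares are a description only.
ZFAS1, chr20:49278632-49278661, plus strand: gccattcgttCTTTCgcgtctgcggtgccc
SNHG5, chr6:85678714-85678743, minus strand: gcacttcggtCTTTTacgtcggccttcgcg
SNHG12, chr1:28581854-28581883, minus strand: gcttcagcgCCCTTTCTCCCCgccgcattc
SNHG16, chr17:76557754-76557783, plus strand: gggcggtctcgcgttCTTTTCgaggtcggc
SNHG8, chr4:118278752-118278781, plus strand: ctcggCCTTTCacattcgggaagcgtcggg
SNHG7, chr9:136728165-136728194, minus strand: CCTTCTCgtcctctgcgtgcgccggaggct
GAS5, chr1:173869026-173869055, minus strand: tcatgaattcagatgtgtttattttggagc
SNHG1, chr11:62855866-62855895, minus strand: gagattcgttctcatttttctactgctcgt
In ZFAS1 and SNHG5 the run began at the annotated first base, in SNHG12 at the base before it and in SNHG16 at the sixth base. The run of SNHG7 lay wholly before the annotated start, and that of SNHG8 began before it and ended at the first base. The windows of GAS5 and SNHG1 held no such run, which says only that these letters are absent from these windows. The RefSeq start lay 0 bases from the 5′ end of the gene in the count tables for SNHG7, 2 for SNHG16, 3 for SNHG5, 29 for SNHG1, 53 for SNHG8, 163 for GAS5, 464 for ZFAS1 and 1110 for SNHG12. With at least 8 bases required, the run remained in 1 of the 8 windows (12.5%), that of SNHG12, and in 9.69% of all starts.

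Each library held between 35342393 and 48245989 counted reads. DNAJC17 itself was at 11.2, 12.4 and 12.3 CPM (its count normalised to library size, with TMM scaling over the 18 libraries) in the ES8 control libraries A, B and C and at 1.56, 1.96 and 1.56 in the knockdown libraries. In Rh30 it was at 11.7, 11.9 and 10.8 in control and at 2.52, 2.20 and 2.72 in knockdown libraries. In the ΔRRM groups, where reads of the transgene are counted too, it was at 283 to 312 CPM in ES8 and 336 to 368 in Rh30. A list of 8 Ewing sarcoma markers summed to 1543 to 1617 CPM in ES8 control and to 405 to 435 in Rh30 control libraries. A list of 10 rhabdomyosarcoma markers summed to 3101 to 3189 in Rh30 control and to 99.8 to 101.5 in ES8 control libraries. Of the first list 8 of 8 were called lower in Rh30 control than in ES8 control (all genes 45.5%). Of the second 8 of 10 were called higher and 1 lower (all genes 42% and 45.5%). MYOG and CHRNA1 were at 0 in every ES8 control library, and TFAP2B, in the same list, was at 0 in every Rh30 library. In Rh30 the rhabdomyosarcoma list summed to 2586 to 2815 CPM in knockdown and to 2040 to 2278 in ΔRRM libraries. Of its 9 genes tested 4 and 7 were called below control, against 16.2% and 35% of all genes. In ES8 the Ewing list summed to 1496 to 1548 CPM in knockdown and to 1346 to 1496 in ΔRRM libraries. Of its 8 genes 4 were called below control in knockdown cells (all genes 13.8%). In ΔRRM cells 0 were, where 0.174% of all genes were called in either direction. A list of 11 epithelial markers summed to 1.20 to 1.63 CPM in Rh30 control libraries, where CLDN7 and RAB25 were at 0, to 13.4 to 19.2 in Rh30 knockdown and to 14.4 to 16.7 in Rh30 ΔRRM libraries. In ES8 that list summed to between 34.3 and 44.6 CPM in all 9 libraries. These shifts went along with the changes given next, and their part in them was not tested.

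In control cells the order of the hosts, per kilobase of exon in the count tables, differed between the lines. In ES8 control cells GAS5 was the highest, at 48.7 ± 1.6 CPM per kb (SD, n = 3), followed by SNHG8 at 35.0 ± 1.3, ZFAS1 at 27.1 ± 3.0 and SNHG6 at 25.3 ± 0.61. SNHG16 (21.8 ± 0.89), SNHG5 (19.2 ± 0.48), SNHG1 (15.4 ± 0.54), SNHG15 (15.3 ± 0.50) and SNHG7 (13.7 ± 0.55) came next, and SNHG12 was the lowest at 2.33 ± 0.025 CPM per kb. Only ZFAS1 and SNHG6, and SNHG1 and SNHG15, were neighbours whose libraries overlapped. In Rh30 control cells SNHG5 led at 51.3 ± 4.3 CPM per kb, ahead of SNHG16 at 34.8 ± 1.5, followed by SNHG6 at 21.8 ± 1.5 and GAS5 at 19.6 ± 0.83, which overlapped. SNHG15, SNHG7 and ZFAS1 lay together at 10.4 ± 0.86, 10.4 ± 0.46 and 10.3 ± 1.1, and SNHG12 was again the lowest, at 2.80 ± 0.079 CPM per kb.

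DNAJC17 knockdown raised the host genes in both lines. In ES8 cells 10 of 10 were called higher than control by edgeR's quasi-likelihood test at a Benjamini-Hochberg adjusted p under 0.05, against 13.6% of the 17143 genes tested. In Rh30 cells 10 of 10 were called higher, against 16.1% of the 15391 genes tested. The hosts called lower were 0 of 10 in each line, against 13.8% of genes in ES8 and 16.2% in Rh30. Since the hosts were chosen with earlier results of these data known, these shares are a description and not a test. The median log2 fold change of the 10 genes was 0.56 in ES8 (range 0.29 to 0.95) and 0.47 in Rh30 (range 0.25 to 1.39), where the medians over all genes tested were -0.02 and 0.00. The hosts' median exceeded the log2 fold change of 93.1% of genes tested in ES8 and of 94.1% in Rh30. Every knockdown library lay above every control library for 10 of 10 genes in each line, as it did for 23.5% of genes in ES8 and 21.1% in Rh30. With 3 libraries against 3, an exact two-sided permutation test cannot give a p below 0.1, and each gene whose groups did not overlap was at that value.

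**Figure D1:**
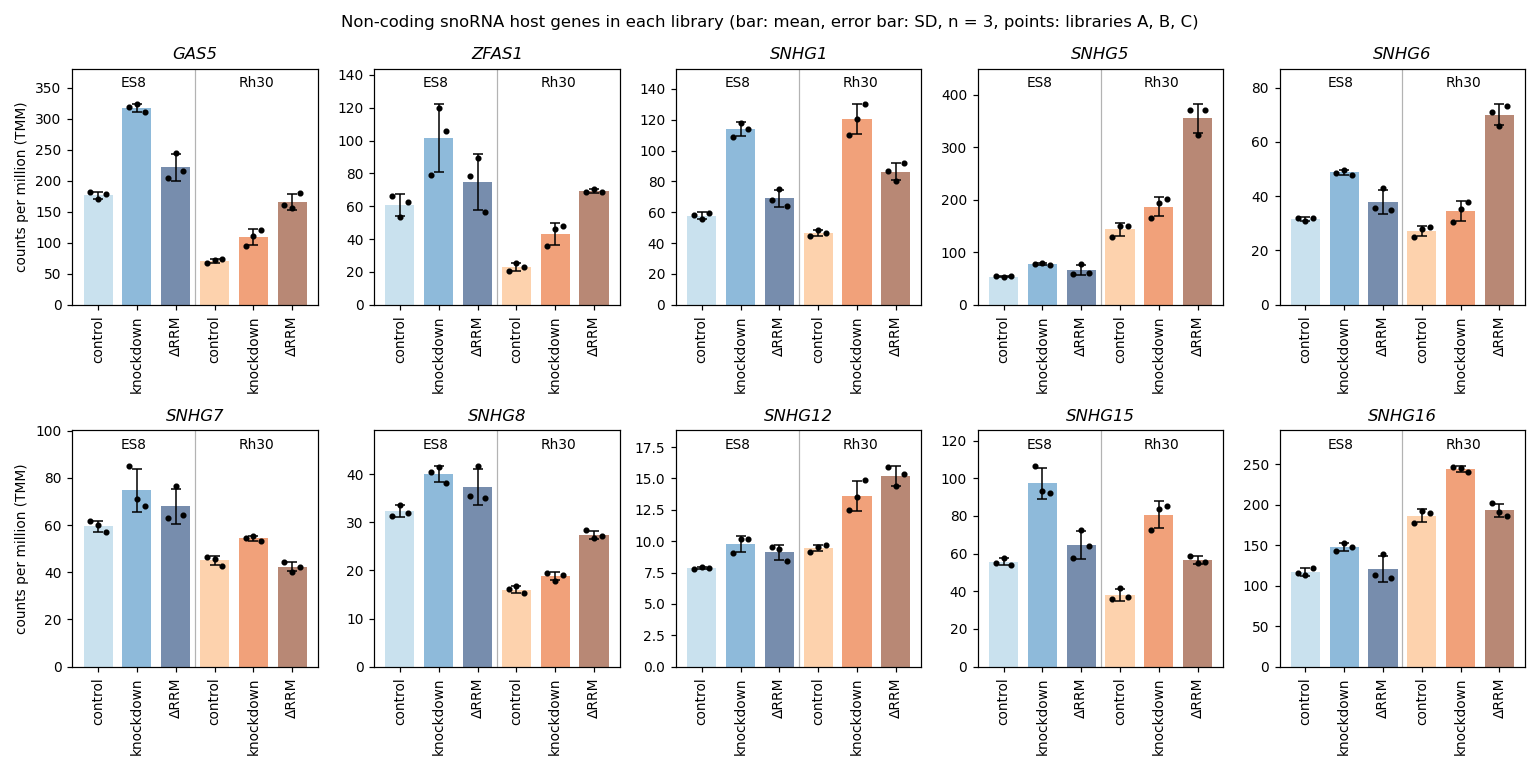
Level of each of the 10 host genes in every library, as CPM after TMM scaling on axes starting at 0, with bars for the mean, error bars for the SD (n = 3) and points for libraries A, B and C. Every knockdown bar is above its control bar, and in Rh30 the ΔRRM bar is above the knockdown bar for GAS5, ZFAS1, SNHG5, SNHG6, SNHG8 and SNHG12.

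SNHG1, the host with the most box C/D snoRNAs after GAS5, had the largest fold change of the 10 in both lines. Its level was 58.2, 55.6 and 59.7 CPM in ES8 control libraries and 109, 118 and 114 CPM in knockdown libraries. This was a log2 fold change of 0.95 ± 0.060 (SE), 1.94-fold, with an edgeR adjusted p of 5.0e-05. In Rh30 it went from 44.6, 48.5 and 46.6 CPM to 110.4, 121 and 130.1 CPM, a log2 fold change of 1.39 ± 0.074 or 2.62-fold (edgeR adjusted p = 5.1e-08). The highest control library stayed far below the lowest knockdown library in each line.

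SNHG15, host of the H/ACA snoRNA SNORA9, was the other gene past 2-fold in Rh30, where its control libraries held 35.9, 41.7 and 36.7 CPM and its knockdown libraries 72.3, 83.7 and 85.5 CPM (2.14-fold, log2 fold change 1.10 ± 0.083, edgeR adjusted p = 1.6e-06). Only 0.767% of the genes tested in Rh30 were called higher with a fold change of at least 2, and the hosts reaching it were 2 of 10, whereas in ES8 they were 0 of 10 against 1.66% of genes. In ES8 SNHG15 rose from 55.1, 57.7 and 54.2 CPM to 107, 93.4 and 91.9 CPM (1.72-fold, edgeR adjusted p = 0.00022).

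GAS5, first described as a transcript that accumulates in growth-arrested cells, was the most abundant host in ES8, at 182, 171 and 178 CPM in control libraries. It stood at 319, 324 and 310.4 CPM in knockdown libraries, with the smallest SE of the 10 hosts in ES8 (1.77-fold, log2 fold change 0.82 ± 0.052, edgeR adjusted p = 5.0e-05). In Rh30 it rose from 67.9, 71.9 and 73.8 CPM to 95.5, 111 and 121 CPM (1.55-fold, edgeR adjusted p = 0.00015).
ZFAS1, transcribed divergently from and antisense to ZNFX1, had the largest SE of the 10 hosts in both lines. Its ES8 values were 66.3, 53.4 and 62.8 CPM in control and 79.0, 119.7 and 106 CPM in knockdown libraries (log2 fold change 0.72 ± 0.14, edgeR adjusted p = 0.0044). In Rh30 it went from 20.6, 25.4 and 23.2 CPM to 35.7, 46.1 and 48.2 CPM, a log2 fold change of 0.92 ± 0.11 (edgeR adjusted p = 7.7e-05).

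The remaining box C/D hosts changed by less. SNHG6 rose from 32.0, 30.7 and 32.0 CPM to 48.7, 49.7 and 47.9 CPM in ES8 (1.52-fold, edgeR adjusted p = 0.00031) and from 25.0, 28.0 and 28.5 CPM to 30.7, 35.3 and 38.0 CPM in Rh30 (1.29-fold, edgeR adjusted p = 0.0062). SNHG5 rose from 53.7, 52.1 and 54.7 CPM to 77.7, 80.2 and 75.4 CPM in ES8 (1.43-fold, edgeR adjusted p = 0.00044). In Rh30, where it was the most abundant host per kilobase, SNHG5 rose from 129, 151 and 150.2 CPM to 166, 193 and 201 CPM (1.32-fold, edgeR adjusted p = 0.0028). SNHG16 rose 1.25-fold in ES8, from 113 to 122 CPM in control to 143 to 153 CPM in knockdown libraries, and 1.32-fold in Rh30, from 178 to 192 CPM to between 240.2 and 247 CPM (edgeR adjusted p = 0.0034 and 0.00027).

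SNHG7, SNHG8 and SNHG12 gave the smallest log2 fold changes in ES8, with SNHG16 close above them at 0.32 ± 0.057. In Rh30 SNHG12 rose more than SNHG16, SNHG5 and SNHG6. The knockdown calls lost when single libraries were left out were all among SNHG7, SNHG8 and SNHG12. SNHG7 was at 56.9 to 61.6 CPM in ES8 control and 68.1 to 85.1 in knockdown libraries (log2 fold change 0.31 ± 0.087, edgeR adjusted p = 0.026), with library A well above the other two. In Rh30 its ranges were 42.7 to 46.5 and 53.4 to 55.5 CPM (log2 fold change 0.29 ± 0.063, edgeR adjusted p = 0.0035). SNHG8 was at 31.2 to 33.7 against 38.1 to 41.5 CPM in ES8 (log2 fold change 0.29 ± 0.071, edgeR adjusted p = 0.015) and at 15.3 to 16.7 against 17.8 to 19.5 CPM in Rh30 (0.25 ± 0.077, edgeR adjusted p = 0.024). SNHG12, the least abundant host, was at 7.76 to 7.92 CPM in ES8 control and 9.04 to 10.2 in knockdown libraries (log2 fold change 0.30 ± 0.091, edgeR adjusted p = 0.037), and at 9.16 to 9.68 against 12.5 to 14.9 CPM in Rh30 (0.54 ± 0.093, edgeR adjusted p = 0.00089). The ES8 call of SNHG12 was lost with DESeq2 (adjusted p = 0.060), with scaling by library totals (edgeR adjusted p = 0.079) and in the fit with no filter on low counts (edgeR adjusted p = 0.074). The Rh30 call of SNHG8 was lost with library totals (edgeR adjusted p = 0.093) and with no filter (edgeR adjusted p = 0.058), while it stayed above 0 under all settings tried. In ES8 the call of SNHG12 was also lost when control library A, B or C or knockdown library B or C was left out (edgeR adjusted p from 0.10 to 0.13). That of SNHG7 was lost without control library A, B or C (0.073 to 0.12), and that of SNHG8 without control library A or C or knockdown library B (0.058 to 0.083). In Rh30 the call of SNHG8 was lost without control library A or C or knockdown library C (0.058 to 0.10).

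**Figure D2:**
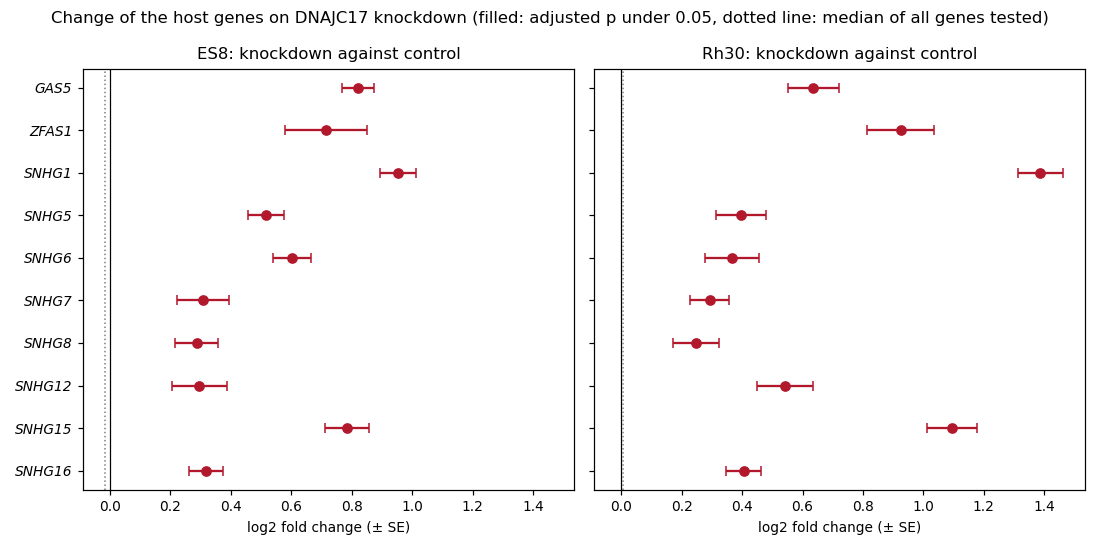
Log2 fold change of each host gene on DNAJC17 knockdown in ES8 (left) and Rh30 (right). Bars give the SE derived from the edgeR F statistic. Filled points mark an adjusted p under 0.05, and the dotted line is the median of all genes tested. All 10 points lie to the right of 0 in both panels, SNHG1 farthest at 0.95 and 1.39.

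Whether the knockdown acted on a host differently in the lines was tested by the interaction of line and knockdown over 12 libraries. Only SNHG1 was called, with a log2 fold change 0.46 ± 0.10 larger in Rh30 than in ES8 (edgeR adjusted p = 0.0082), so that 1 of 10 hosts differed in this direction against 5.23% of the 18899 genes tested, and 0 in the other, against 4.55%. A difference of at least 2-fold toward Rh30 was called for 0 of 10, against 0.55% of genes. Without the Rh30 control library A this difference was 0.37 and no longer called (edgeR adjusted p = 0.055). The next largest, for SNHG15, was 0.34 ± 0.12 (edgeR adjusted p = 0.093), and it was called when the ES8 knockdown library A (0.43) or the Rh30 knockdown library A (0.42) was left out. For the other 8 hosts the difference lay between -0.21 and 0.27, with SEs of 0.088 to 0.18, which leaves room for differences as large as many of the changes themselves.

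In ES8 cells expressing ΔRRM the hosts lay between control and knockdown cells. Against knockdown cells, 4 of 10 were called lower, where 7.36% of the 17099 genes tested were, and 0 were called higher, against 7.35%. The 4 called lower were SNHG1, SNHG15, GAS5 and SNHG6. At a fold change of at least 2 the hosts called lower were 0 of 10, against 1.49% of genes. SNHG1 was at 68.1, 75.1 and 64.2 CPM in ΔRRM libraries, all below its knockdown libraries (log2 fold change -0.70 ± 0.091, edgeR adjusted p = 0.0011). SNHG15 was at 57.6, 72.3 and 63.8 CPM (-0.57 ± 0.11, edgeR adjusted p = 0.0053), and GAS5 at 205, 246 and 215 CPM (-0.50 ± 0.090, edgeR adjusted p = 0.0048). SNHG6, at 35.7, 42.9 and 35.0 CPM, was called at an edgeR adjusted p of 0.041, which became 0.11 with the replicate letter as a block and 0.10 to 0.19 without knockdown library B or C or ΔRRM library A or C. SNHG16 was also below knockdown in every library (113, 139 and 109.7 CPM) but was not called (edgeR adjusted p = 0.086), so 5 of 10 hosts were below without overlap, against 18.7% of genes. For ZFAS1, SNHG5, SNHG7, SNHG8 and SNHG12 the libraries of the groups overlapped, and ZFAS1 was called (edgeR adjusted p = 0.022) only without knockdown library A among the libraries left out in turn, and in the fit with no filter on low counts (0.0020).

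Against ES8 control cells, 0 of 10 hosts were called higher or lower in ΔRRM cells by edgeR, where 0.174% of the 17199 genes tested were called in either direction. The log2 fold changes were all above 0, from 0.04 for SNHG16 to 0.32 ± 0.072 for GAS5 (edgeR adjusted p = 0.12). At an unadjusted p under 0.05, 9 of the 10 were higher and 0 lower, against 6.80% of all genes higher, and every ΔRRM library was above every control library for 7 of 10, against 11.4% of genes. DESeq2 called 1 host higher, GAS5 (adjusted p = 0.013). The ES8 ΔRRM library B was the highest of its group for 9 of the 10 hosts. Without it SNHG5 and SNHG16 were also called below knockdown, and GAS5 was called above control (log2 fold change 0.24, edgeR adjusted p = 0.015). Without ΔRRM library A, GAS5 and SNHG5 were called above control (edgeR adjusted p = 0.025 and 0.047). The shares of all genes called in these alternative fits are not given here.

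In Rh30 cells expressing ΔRRM the hosts parted. Against knockdown cells, 5 of 10 were called higher and 4 of 10 lower, where 29.4% and 30.5% of the 15309 genes tested were, so the shares of called genes are high throughout this comparison. SNHG6 and SNHG5 moved up most. SNHG6 was at 71.1, 65.7 and 73.4 CPM in ΔRRM libraries, 2.03-fold above knockdown (log2 fold change 1.02 ± 0.085, edgeR adjusted p = 2.1e-18), and SNHG5 was at 370.1, 323 and 371 CPM, 1.91-fold above (0.93 ± 0.082, edgeR adjusted p = 2.2e-17). ZFAS1, at 68.9, 70.6 and 68.7 CPM, GAS5, at 161, 157 and 181 CPM, and SNHG8, at 28.4, 26.7 and 27.1 CPM, were also higher, by log2 fold changes of 0.69, 0.61 and 0.55. The libraries of these 5 genes lay above all those of the knockdown group, as they did for 31.4% of genes. SNHG6 alone passed a fold change of 2, so 1 of 10 hosts did against 4.42% of genes, and 0 of 10 were lower by that much, against 3.36%.

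The 4 hosts below Rh30 knockdown cells were SNHG15, SNHG1, SNHG7 and SNHG16, each lower in every library, as were 32.8% of genes. SNHG15 was at 58.8, 55.1 and 55.4 CPM (log2 fold change -0.50 ± 0.081, edgeR adjusted p = 1.0e-07) and SNHG1 at 86.5, 80.6 and 92.1 CPM (-0.47 ± 0.080, edgeR adjusted p = 3.7e-07). SNHG7 was at 44.2, 40.3 and 42.4 CPM (-0.36 ± 0.082, edgeR adjusted p = 1.0e-04) and SNHG16 at 202, 192 and 186 CPM (-0.33 ± 0.077, edgeR adjusted p = 0.00013). SNHG12, at 15.9, 14.4 and 15.4 CPM, overlapped the knockdown libraries and was not called (0.17 ± 0.10, edgeR adjusted p = 0.15), though it was without knockdown library C (edgeR adjusted p = 0.046). Hosts of both snoRNA classes stood on each side of this split.

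The same ΔRRM libraries were set against Rh30 control cells. Here 8 of 10 hosts were called higher and 0 lower, where 33.8% and 35% of the 15442 genes tested were. ZFAS1 was 3.09-fold above control (log2 fold change 1.63 ± 0.071, edgeR adjusted p = 8.9e-28), SNHG6 2.64-fold, SNHG5 2.54-fold and GAS5 2.40-fold, so 4 of 10 passed a fold change of 2 against 6.66% of genes. SNHG1, SNHG8, SNHG12 and SNHG15 were 1.90, 1.76, 1.65 and 1.52-fold above control. SNHG16 (log2 fold change 0.09 ± 0.062, edgeR adjusted p = 0.20) and SNHG7 (-0.05 ± 0.067, edgeR adjusted p = 0.50) overlapped the control libraries and were not called. Every ΔRRM library was above every control library for 8 of 10 hosts, against 33.6% of genes. Scaling by library totals moved the median of all genes in this comparison to -0.25, and the share of genes called under it is not given here. The 8 hosts called higher kept the call. SNHG16 turned to -0.15 (edgeR adjusted p = 0.027) and SNHG7 to -0.29 (edgeR adjusted p = 0.00027), both then called lower.

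**Figure D3:**
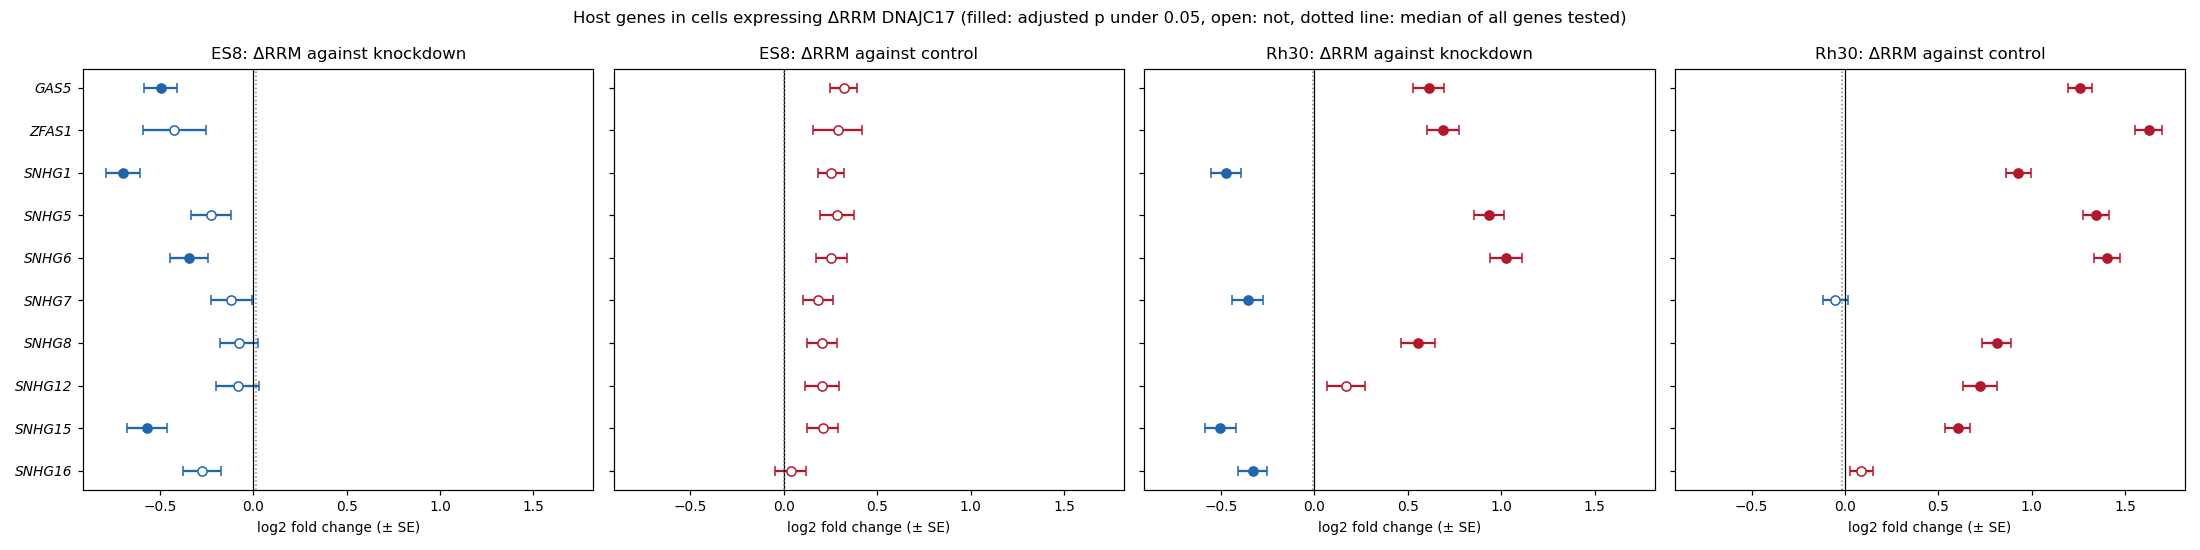
Log2 fold change of each host gene in ΔRRM cells against knockdown and against control cells in ES8 (left pair of panels) and Rh30 (right pair), with bars for the SE, filled points for an adjusted p under 0.05, open points for the rest and a dotted line for the median of all genes tested. In ES8 all points lie below 0 against knockdown, down to -0.70, and above 0 against control, up to 0.32, while in Rh30 they spread from -0.50 to 1.02 against knockdown and reach 1.63 against control.

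The difference between the lines in ΔRRM cells against control was tested in the same way. For 8 of 10 hosts the log2 fold change was larger in Rh30, against 19.9% of the 18854 genes tested, and for 0 it was smaller, against 21.5%. For 3 hosts, ZFAS1, SNHG6 and SNHG5, the difference was at least 2-fold, against 3.85% of genes. The differences were 1.34 ± 0.16 for ZFAS1 and 1.15 ± 0.11 for SNHG6 (edgeR adjusted p = 5.8e-07 and 6.9e-08), followed by SNHG5, GAS5, SNHG1, SNHG8, SNHG12 and SNHG15, the last at 0.40 ± 0.11 (edgeR adjusted p = 0.0054). SNHG16 (0.05 ± 0.10) and SNHG7 (-0.24 ± 0.10, edgeR adjusted p = 0.077) were not called. With library totals, which moved the median of all genes to -0.23, SNHG12 and SNHG15 lost the call and SNHG7 was called smaller, as it also was without ES8 ΔRRM library A (edgeR adjusted p = 0.019).

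Between the control cells of the lines all 10 hosts differed, as did 87.5% of the 17925 genes tested. In Rh30 3 were higher, against 42% of genes, and 7 were lower, against 45.5%. SNHG5 was 2.63-fold and SNHG16 1.57-fold higher in Rh30. ZFAS1, GAS5 and SNHG8 were lower, at 0.372, 0.395 and 0.487 of their ES8 level. SNHG15, SNHG7, SNHG1 and SNHG6 were at 0.672 to 0.845 of theirs. At a fold change of at least 2, 1 host was higher and 3 were lower in Rh30, against 22.2% and 28.7% of genes. SNHG12 was 1.18-fold higher (edgeR adjusted p = 0.012), a call lost with DESeq2 (adjusted p = 0.075) and with library totals (edgeR adjusted p = 0.78).

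Within a line the hosts varied together across the 9 libraries to different degrees, given here as a description over libraries that share the group structure and the scaling. In ES8 the 45 pairs of hosts had Pearson correlations of log2 CPM from 0.55 to 0.99, with a median of 0.86. In Rh30 they ran from -0.47 to 1.00, with a median of 0.67, and 8 of 45 were below 0, all of them pairs of SNHG7 or SNHG16 with GAS5, ZFAS1, SNHG5, SNHG6 or SNHG8. The lowest was SNHG6 with SNHG7. The genes outside the list whose profile over the 18 libraries, centred within each line, was most like the mean of the hosts, among 11504 genes with a mean of at least 100 counts, were RPL23, a ribosomal protein gene that itself hosts a snoRNA (r = 0.99), PFDN1, a prefoldin subunit (0.98), DDIT3, the stress transcription factor CHOP (0.98), ZFAND2A, a zinc finger gene induced by proteotoxic stress (0.98), and DRG1, a GTPase (0.98).

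Related genes were read from lists with the same tests. Each count of a list on knockdown, here and in the next paragraphs, is to be read against 13.6% of all genes tested higher and 13.8% lower in ES8, and 16.1% higher and 16.2% lower in Rh30. Of 16 other non-coding snoRNA hosts tested, 9 rose and 0 fell in ES8 knockdown cells, and 9 rose and 1 fell in Rh30, with medians of 0.25 and 0.34. In log2 fold change, SNHG17 rose by 0.92 ± 0.078 in ES8 and by 1.05 ± 0.070 in Rh30, EPB41L4A-AS1 by 1.14 and 0.52, and SNHG32 by 0.53 and 0.39. By comparison, of the other long non-coding RNA genes tested 9.07% rose and 5.24% fell in ES8, and 6.25% rose and 5.19% fell in Rh30. Their median log2 fold changes were 0.03 and 0.01. These genes were not matched to the hosts for read count, on which the share called also depends. Of 34 protein-coding snoRNA hosts, most of them ribosomal protein and translation factor genes, 23 rose in each line, while 2 fell in ES8 and 0 in Rh30. Among these, the initiation factor genes EIF4A1 (log2 fold change 0.73 and 0.65) and EIF4A2 (0.60 and 0.44) and the ribosomal protein gene RPL37 (0.53 and 0.41) rose in both.

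Of 20 protein-coding genes with transcripts known as substrates of nonsense-mediated decay, 12 rose and 0 fell in ES8, and 17 rose and 1 fell in Rh30, with medians of 0.28 and 0.34. PPP1R15A, a phosphatase subunit of the stress response, rose 1.06 ± 0.057 and 1.42 ± 0.065 on the log2 scale, ATF4, the transcription factor of the same response, 0.72 and 0.54, and the splicing factor gene TRA2A 0.54 and 0.42. ATF4 and PPP1R15A are also known to be controlled in other ways than by decay. Of the 19 factors of nonsense-mediated decay itself, 6 rose and 2 fell in ES8 (all genes 13.6% and 13.8%), and 5 rose and 4 fell in Rh30 (16.1% and 16.2%), with medians of 0.05 and -0.07. MAGOHB (0.45 and 0.38), SMG8 (0.39 and 0.29) and RNPS1 (0.35 and 0.24) rose in both lines.

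Of 19 genes for proteins of the snoRNA particles and their assembly, 4 rose and 2 fell in ES8, and 8 rose and 2 fell in Rh30, among them SNU13 (log2 fold change 0.42 and 0.51), NOP10 (0.31 and 0.50) and ZNHIT3 (0.36 and 0.41), which rose in both. Of 11 regulators of TOP messenger RNAs, 3 rose and 1 fell in ES8, and 2 rose and 3 fell in Rh30, against the same shares of all genes. MTOR, the kinase that drives their translation, fell by 0.39 and 0.50 on the log2 scale (log2 fold changes -0.39 ± 0.066 and -0.50 ± 0.095), CNBP rose by 0.33 and 0.62, and EIF4EBP1 by 0.24 and 0.32.

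**Figure D4:**
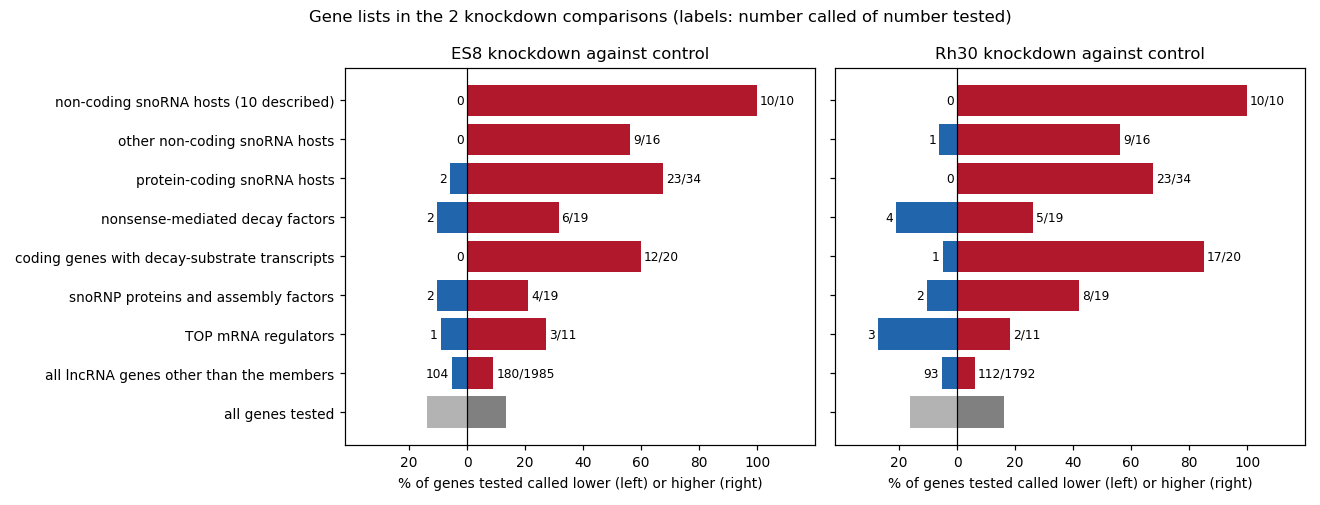
Share of the genes tested in each list that were called higher (right, red) or lower (left, blue) on knockdown in ES8 and Rh30, with the counts printed beside the bars and all genes tested in grey. The 10 hosts described stand at 10 of 10 in both panels, other non-coding hosts at 9 of 16 and protein-coding hosts at 23 of 34, and all genes at 13.6% and 16.1%.

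The files counted reads over merged exons, and this bears on what a host's value holds. Of the 26 snoRNA genes with a row of their own inside the 10 hosts, 21 lay whole inside annotated host exons, and all 21 had 0 counts in every library. The other 5 were not whole inside host exons and had counts. A further 12 snoRNAs of the RefSeq annotation, 9 of them in GAS5, had no row and lay whole inside host exons, so any of their reads would count to the host. Where an annotated exon spans a snoRNA, reads of an unspliced and of a spliced host transcript cannot be told apart in these counts.

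Only SNORD99, in an intron of SNHG12, reached a mean of 10 counts (range 4 to 20), and it was not called in either knockdown. SNORD12C in ZFAS1, named after its values were seen, had 0, 0 and 0 counts in ES8 control libraries, 7, 13 and 21 in knockdown and 3, 0 and 3 in ΔRRM libraries. In Rh30 it had 0, 0 and 3, then 11, 6 and 6, and then 2, 2 and 2 counts. SNORD12C was too low to be tested. Sums over the control, knockdown and ΔRRM groups follow for the other rows with counts, also named afterwards. SNORD12B in ZFAS1 had 39, 58 and 19 in ES8 and 4, 9 and 3 in Rh30. On ES8 knockdown it was not called (log2 fold change 0.84, edgeR adjusted p = 0.13). In ES8 ΔRRM against knockdown it was called lower (-1.75, edgeR adjusted p = 0.040). SNORD1B in SNHG16 had 3, 12 and 5, and 2, 4 and 1. SNORD30 in SNHG1 had 3, 6 and 3, and 8, 4 and 0. The libraries were selected for poly-A RNA, so these counts are no measure of the mature snoRNAs.

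Exons of genes on the other strand overlapped 5 hosts, and the strand setting of the counting was not given in the sources used here. Whether reads over these shared bases were counted to the host, to the partner or to neither cannot therefore be told. ZNFX1 shared 11.1% of the exonic bases of ZFAS1, MCMDC2 29.3% of SNHG6, DIPK1B 25.2% of SNHG7, GAS5-AS1 1.16% of GAS5 and TRNAU1AP 0.237% of SNHG12. On its own strand ZFAS1 also shared 8.83%, 4.15% and 3.88% with genes without a symbol, which were not tested. Counting every other gene, 46.9% of its exonic bases were shared. In ES8 knockdown cells, where ZFAS1 rose, the log2 fold change of ZNFX1 was 0.00 ± 0.070, and in Rh30 it fell by 0.34. DIPK1B was at -0.14 ± 0.092 in ES8, and TRNAU1AP at 0.04 and 0.13 in ES8 and Rh30, none of them called. The level of DIPK1B was 51.9 CPM in ES8 control and 0.197 CPM in Rh30 control cells (log2 fold change -8.05 ± 0.12). It was not tested on knockdown in Rh30. Whether it bears on the values of SNHG7, or on their difference between the lines, was not tested.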

How the data were processed

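Total RNA was selected for poly-A and sequenced in 18 libraries, 3 in each of 6 groups, and the authors deposited raw counts per gene, with the summed exon length of each gene, in a table per library. The submitters' processing notes name Trimmomatic 0.36, STAR 2.5.2b, featureCounts from Subread 1.5.2 and GRCh38, whereas the study's methods name hg19. Of 18932 protein-coding starts in the tables, 85.4% lay within 1 kb of the RefSeq GRCh38 start and 4.04% of the GRCh37 start, so the coordinates were read as GRCh38. The handling of strand and of reads shared by several genes is not given in the sources used here.

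The counts were tested with edgeR 4.0.16 (quasi-likelihood, TMM, filterByExpr, R 4.3.3) on the libraries of each comparison alone, with Benjamini-Hochberg adjustment over all genes tested and a threshold of 0.05. Levels are CPM after TMM over all 18 libraries, and log2 CPM used a prior count of 2. Each SE is the size of the log2 fold change divided by the square root of the edgeR F statistic. Alternatives were DESeq2 1.42.0, its size factors, library totals, no filter, all groups fitted together in 1 model, a block for the replicate letter, a fold change of at least 2 and each library left out. On counts simulated for the ES8 knockdown comparison (17143 genes) the test recovered 84 of 100 genes changed 2-fold and 94 of 100 changed 4-fold, with 7 false calls. For Rh30 knockdown it recovered 92 and 98 of 100, with 9 false calls. For Rh30 ΔRRM against control it recovered 85 and 98 of 100, with 11 false calls. Only 200 genes were changed in each simulation. Changes under 2-fold, such as those of all hosts in ES8 knockdown cells, were not simulated, so their recovery is not known.

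The hosts and the lists were chosen with earlier results of these data known, so no p is given over a list. Genes outside the hosts were named by rule: at most 3 of each list with the smallest larger p of the knockdown comparisons, snoRNA genes with a mean of at least 10 counts, genes sharing exon bases with a host, and the 5 genes most correlated with the mean host profile. Start sequences and snoRNA positions come from RefSeq tables, which gave no start for SNHG15, and the start of SNHG6 is not shown. A gene that the rule on shared exon bases also names is not reported here.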

Additional observations from a re-analysis of the deposited data

Results flagged for a closer look

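The effect of a treatment differed between the lines for several hosts by the interaction test of edgeR. For the knockdown against control, the log2 fold change of SNHG1 was 0.46 larger in Rh30 than in ES8, with every knockdown library above every control library in both lines. For ΔRRM cells against control, the log2 fold change was larger in Rh30 than in ES8 by 1.34 for ZFAS1, 1.15 for SNHG6, 1.06 for SNHG5, 0.94 for GAS5, 0.68 for SNHG1, 0.61 for SNHG8, 0.52 for SNHG12 and 0.40 for SNHG15. Both interactions use the same control libraries of each line.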

How the results depend on the processing

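Requiring a fold change of at least 2 lowered the counts of hosts called: on knockdown 0 higher in ES8 and 2 in Rh30, in ΔRRM against knockdown 0 lower in ES8 and 1 higher and 0 lower in Rh30, in Rh30 ΔRRM against control 4 higher, between control lines 1 higher and 3 lower, and in the interactions 0 larger for knockdown and 3 for ΔRRM. For the other alternatives in this section the share of all genes called is not given here. In ES8 ΔRRM against control, DESeq2 called 1 higher and the fit without a filter 3. With library totals 2 hosts were called lower in Rh30 ΔRRM against control, SNHG16 reversing to -0.15, and 1 was smaller in the ΔRRM interaction, as with DESeq2. The cause of these changes was not tested. Leaving out single libraries, the hosts called higher ranged from 0 to 2 in ES8 ΔRRM against control, those larger in Rh30 from 0 to 2 in the knockdown interaction, and those smaller in the ΔRRM interaction from 0 to 1.

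With the replicate block, 9 hosts were called higher in ES8 knockdown cells (SNHG12 lost, edgeR adjusted p = 0.072), 10 in Rh30, and 3 lower in ES8 ΔRRM against knockdown. It changed no other call of the hosts. Over all genes tested, same-letter deviations in the Rh30 knockdown comparison correlated at 0.20, 0.072 and 0.097. The highest correlations with another letter were -0.11, 0.0091 and 0.043. A second check took 9240 genes with a mean of at least 500 counts, a floor chosen after seeing the data. There the values were 0.42, 0.19 and 0.22 against -0.17, 0.12 and -0.0021. Every other comparison had a letter below 0.1 in both checks. The letters are thus not shown to pair libraries in the other comparisons. In Rh30 knockdown the same letter was the higher each time, and whether it pairs libraries there is not known. At 35342393 to 48245989 counted reads a library, the lowest count of any host was 342 (SNHG12), while no snoRNA row inside a host exceeded 27, so the snoRNA rows were mostly too low to test.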

Other observations

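The related lists also moved in ΔRRM cells. In Rh30 ΔRRM cells against control, 30 of 34 protein-coding snoRNA hosts were called higher and 2 lower, and 14 of 16 other non-coding hosts higher and 1 lower, where 33.8% and 35% of all genes tested were. EIF4A2 was higher by 0.92 ± 0.064, RPL37 by 0.89 ± 0.073 and SNHG32 by 1.11 ± 0.066 on the log2 scale. In the same comparison 13 of the 19 nonsense-mediated decay factors were called lower and 4 higher, among them RNPS1 at -0.56 ± 0.062 and SMG8 at -0.22 ± 0.070, while MAGOHB was higher by 0.88 ± 0.065. Of the 20 protein-coding genes with decay-substrate transcripts, 14 were higher and 3 lower, of the 19 snoRNA particle proteins 13 higher and 3 lower, and of the 11 TOP regulators 5 higher and 5 lower. In ES8 ΔRRM cells against control, 1 protein-coding host was called higher and none of the decay factors, decay-substrate genes, other non-coding hosts, particle proteins or TOP regulators was called in either direction, where 0.174% of all genes tested were called.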
